A study of Mus musculus with 6 samples.

Results

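The genes described here are 45 genes that fold, check, export and degrade proteins in the endoplasmic reticulum (ER), or that sense and answer ER stress. They were taken from a list of mouse symbols of known function, and all 45 were found among the 54281 genes of the count table. Expression was measured in 6 libraries of GLUTag cells, an enteroendocrine line of the mouse that releases GLP-1 and stands in for the intestinal L-cell. The 6 libraries are of one condition and one line, with no treatment and no control: plate 1 holds 3 wells of passage 23, plate 2 holds 3 wells of passage 27, and all were kept 48 h in medium of 1 g/L glucose that contained 10% FBS. Plate and passage therefore cannot be told apart, and p-values measure only the spread between these libraries, since nothing states that the wells of a plate were separate cultures. GLUTag cells carry no intestinal tissue around them, so the values speak for the line and not for L-cells of the gut. In such bulk samples fewer cells with a transcript and less RNA per cell cannot be told apart.

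Proteins that enter the secretory pathway pass the Sec61 channel into the ER, lose their signal peptide, and fold with the help of chaperones and disulphide isomerases. When unfolded proteins accumulate, IRE1 (encoded by Ern1), ATF6 and PERK (encoded by Eif2ak3) signal to the nucleus and to the ribosome. IRE1 splices the mRNA of XBP1, ATF6 is cleaved into a transcription factor, and PERK lowers translation while raising that of ATF4. Cells that make large amounts of peptide hormone depend on this machinery. The 3′ counts used here do not separate spliced from unspliced Xbp1 mRNA, nor do they show cleavage or phosphorylation.

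The total count per library lay between 21399987 and 36488198, and each plate 2 library was larger than each plate 1 library. Counts were divided by the library total and are given as counts per M (CPM). Libraries were made from the 3′ end of transcripts, so that long transcripts gain no extra counts, and levels of different genes were compared without correction for length. Other differences between genes in how well their 3′ ends are counted were not corrected either. Values are listed below for replicates 1, 2 and 3 of plate 1 and then for plate 2 libraries L, M and H, named here by their low, middle and high total because their columns could not be tied to the replicate numbers of the labels. The limit that 0 counts would allow is 3 counts, which is 0.0822 to 0.14 CPM and covers counting error only. All 8 enteroendocrine markers (Gcg, Chga, Chgb, Pcsk1, Neurod1, Cck, Scg2 and Scg5) had more than 3 counts in every library. Their summed level was 5174 to 6082 CPM on plate 1 and 6272 to 7113 CPM on plate 2. Between the plates edgeR called 0 of the 8 with all libraries (0.185% of all genes), with 1 at an unadjusted p under 0.05 (16.1% of all genes). Without library M it called 3 (12% of all genes), Chga and Cck lower and Pcsk1 higher on plate 2. Of 6 leukocyte markers none passed this limit (summed level at most 0.75 CPM). Of 6 fibroblast markers only Col1a2 did, with summed levels of 4.71 to 6.99 CPM on plate 1 and 5.41 to 7.06 CPM on plate 2. Of 6 genes listed as absorptive and goblet markers (Epcam, Vil1, Fabp2, Alpi, Muc2 and Sis) Vil1 and Alpi did. Their list had summed levels of 1.78 to 3.40 CPM on plate 1 and 2.49 to 4.44 CPM on plate 2. Epcam and Vil1 are not particular to these cells, and Epcam, a gene of epithelia in general, had a mean of 0.0457 CPM. Library M stood apart: of the 12360 genes that reached 1 CPM in all libraries, 8.2% were more than 2-fold below the mean of the other plate 2 libraries, against at most 0.591% in the same comparison for any other library.

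ATF6 and XBP1 are known to act through the ER stress response element (ERSE), which is CCAAT, 9 bases of any kind, and CCACG. The RefSeq promoters of GRCm38.p6, from 250 bases before to 50 bases after the start, were searched for it on both strands, and 39 of the 45 genes had a promoter in that table. An exact ERSE was found in 10 of these 39 genes (25.6%), and in 37 of all 27025 genes of the table (0.137%). The genes were listed by function, known targets of the stress response among them, so this share is a description of the list. No promoter is given for Atf6, Derl1, Hyou1, Manf, Sec61a1 and Ssr2. The matches are shown with 20 bases on either side, in the direction of transcription and with the fixed bases of the element in capitals, because 4 of the 5 chaperone genes below share this feature. For Hspa5 only the element itself is shown, since it lies in the first exon of a longer Gencode transcript. Hspa5, Canx, Pdia6, Dnajc3 and Syvn1 hold the element in the forward direction, Calr, Creld2, Derl3 and Ero1lb hold it reversed, and Hsp90b1 holds 1 of each.
Hsp90b1, chr10:86705513-86705676, minus strand: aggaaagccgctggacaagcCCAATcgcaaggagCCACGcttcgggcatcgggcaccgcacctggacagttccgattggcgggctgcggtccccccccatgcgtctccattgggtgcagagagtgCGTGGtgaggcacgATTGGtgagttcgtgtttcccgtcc
Hspa5, chr2:34772025-34772043, plus strand: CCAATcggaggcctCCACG
Calr, chr8:84847055-84847113, minus strand: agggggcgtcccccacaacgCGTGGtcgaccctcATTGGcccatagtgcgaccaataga
Canx, chr11:50325780-50325838, minus strand: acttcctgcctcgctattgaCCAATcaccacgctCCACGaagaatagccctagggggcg
Pdia6, chr12:17266471-17266529, plus strand: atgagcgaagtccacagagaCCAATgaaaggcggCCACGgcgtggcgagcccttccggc
Ero1lb, chr13:12565662-12565720, plus strand: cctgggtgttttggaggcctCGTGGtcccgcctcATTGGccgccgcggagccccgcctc
Dnajc3, chr14:118937807-118937865, plus strand: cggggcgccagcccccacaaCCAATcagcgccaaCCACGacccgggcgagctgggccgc
Creld2, chr15:88819500-88819558, plus strand: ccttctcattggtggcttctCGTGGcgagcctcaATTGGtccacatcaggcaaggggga
Syvn1, chr19:6046512-6046570, plus strand: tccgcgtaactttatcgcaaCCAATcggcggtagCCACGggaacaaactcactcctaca
Derl3, chr10:75893222-75893280, plus strand: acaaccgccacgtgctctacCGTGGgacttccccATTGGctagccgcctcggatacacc

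The first base of the element lies between 212 bases (Hsp90b1) and 44 bases (Syvn1) before the start. The 10 genes with an ERSE had a median level of 162.9 CPM, and the 29 genes of the table without one had a median of 47.4 CPM. Both sets span wide ranges, from 2.06 CPM (Derl3) to 1187 CPM (Hsp90b1) with the element and from 4.12 CPM (Atf3) to 332.5 CPM (Pdia3) without it. A CCAAT box alone, which every ERSE contains, was found in 28 of the 39 genes (71.8%) and in 41.1% of all genes of the table.

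A second form, ERSE-II, is ATTGG, 1 base and CCACG. It was found in Herpud1 and Dnajb11 (5.13% of the 39 genes and 0.0444% of all genes), in Dnajb11 beginning 7 bases after the start. The joint C/EBP-ATF core TGATGCAA, to which ATF4 and CHOP are known to bind with C/EBP partners, was found in Atf3, Chac1 and Herpud1 (7.69% of the 39 genes and 1.03% of all genes). Herpud1 is the only one of the 39 genes with both. These stretches are shown because they hold the core, which was found in no chaperone gene of the table, and the capitals again mark the matched bases.
Herpud1, chr8:94386297-94386407, plus strand: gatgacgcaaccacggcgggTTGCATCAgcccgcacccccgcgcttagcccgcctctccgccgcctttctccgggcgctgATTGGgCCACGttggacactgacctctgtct
Chac1, chr2:119351029-119351076, plus strand: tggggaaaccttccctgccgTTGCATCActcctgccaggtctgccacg
Atf3, chr1:191183416-191183463, minus strand: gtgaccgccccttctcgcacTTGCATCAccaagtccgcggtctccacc

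The cAMP response element TGACGTCA was found in Ppp1r15a alone (2.56% of the 39 genes and 2.03% of all genes). The XBP1 core TGACGTGG, which shares its first 6 bases with that element, was in none of the 39 promoters and in 0.714% of all genes. These are matches of letters within a window of 300 bases, and no binding was measured.

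All 45 genes were expressed in GLUTag cells. Each had at least 1 CPM in every library, and 38 had at least 10 CPM in every library. The median of their mean levels was 76.1 CPM, beside 21.4 CPM for those 12360 genes. A mean over 100 CPM was found for 18 of the 45 genes (40% of them, and 14.03% of the 12360 genes), and a mean under 10 CPM for 5. Together the 45 genes took between 0.5151% and 0.8122% of all counts of a library. The lowest share was in plate 1 replicate 2 and the highest in library M.

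**Figure D1:**
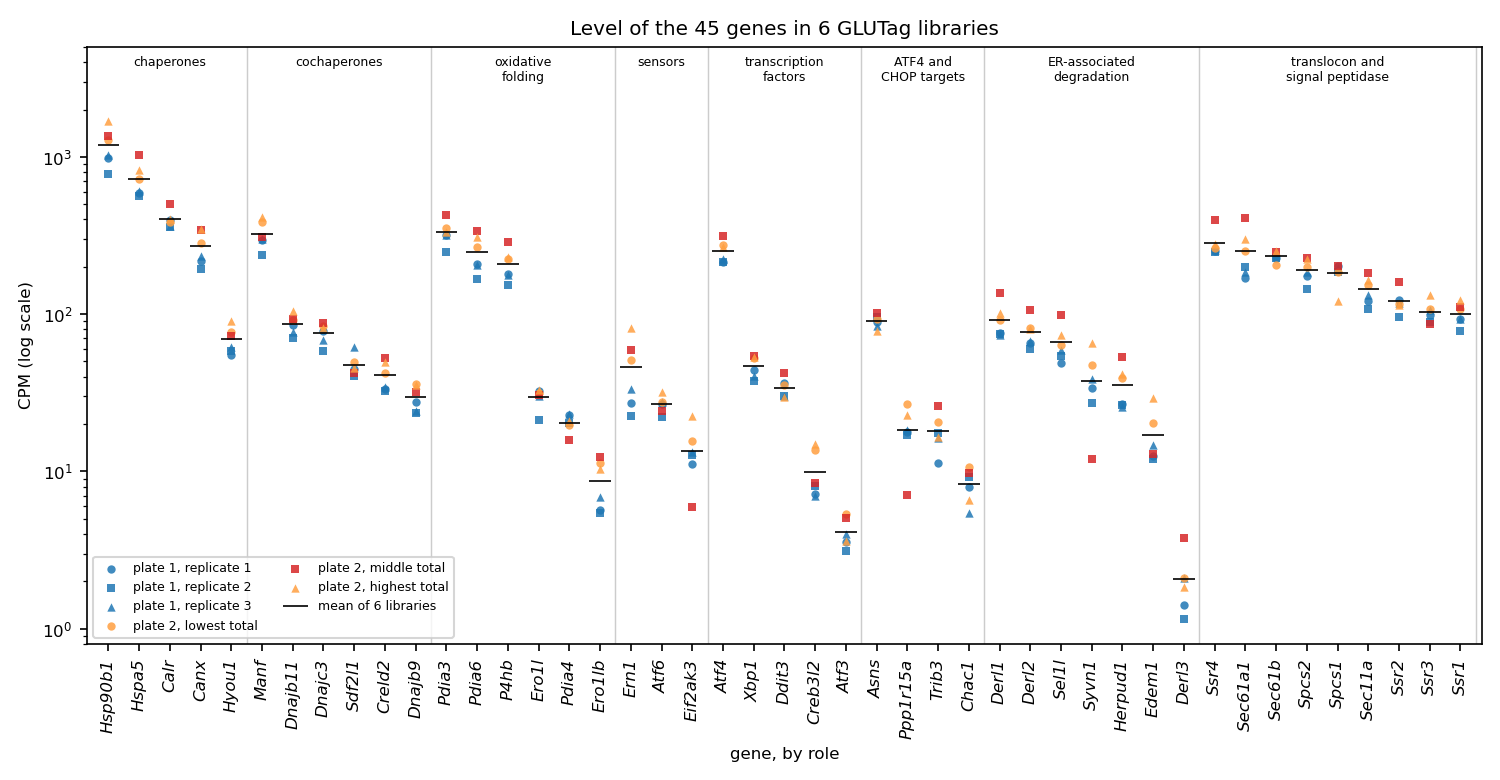
CPM on a log scale of each of the 45 genes in the 6 libraries, by role, with symbols for single libraries and a line for the mean of the 6. Levels span from 2.06 CPM for Derl3 to 1187 CPM for Hsp90b1, and library M (red squares, the plate 2 library of middle total) lies far below the others for Syvn1, Ppp1r15a and Eif2ak3.

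The chaperones made up the largest part of this expression, with 40.1% of the summed CPM of the 45 genes. Hsp90b1 (ENSMUSG00000020048, chromosome 10 of GRCm38, 86690209 to 86705509, minus strand) encodes GRP94, the HSP90 of the ER lumen, and was the highest of all, with 982, 783 and 1033 CPM on plate 1 and 1286, 1353 and 1686 CPM on plate 2. Its mean was 1187 ± 321 CPM (SD, n = 6), which ranks it 85th of all genes. Hspa5 (ENSMUSG00000026864, chromosome 2 of GRCm38, 34771970 to 34777547, plus strand) encodes BiP, the HSP70 that also holds the stress sensors inactive, and had 594, 562 and 610.3 CPM on plate 1 and 724, 1023 and 829 CPM on plate 2. Both genes were higher in every plate 2 library than in every plate 1 library in these CPM. After TMM scaling this held for Hsp90b1, while the plates overlapped for Hspa5 (649.9 CPM in library L and 655 CPM in plate 1 replicate 3). Hspa5 was below Hsp90b1 in 6 of 6 libraries, with a mean log2 difference of -0.70 ± 0.23 (SD, n = 6, exact two-sided sign-flip permutation p = 0.03125, adjusted p = 0.0354 over 17 pairs). Any pair with a constant order takes this p. The pairs, here and below, were chosen with earlier results of these data known.

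The lectin chaperones of glycoproteins came next. Calr, the soluble lectin calreticulin, had 401 ± 52.9 CPM and Canx, its membrane-bound relative calnexin, had 270.4 ± 65.3 CPM (each SD, n = 6). Calr exceeded Canx in 6 of 6 libraries by 0.59 in log2 (exact permutation p = 0.03125, adjusted p = 0.0354). Hyou1, an exchange factor and large HSP70 relative, was the lowest chaperone. It had 54.9, 58.2 and 62.2 CPM on plate 1 and 77.3, 72.4 and 90.7 CPM on plate 2, and the plates did not overlap in these CPM. After TMM scaling they almost met, with 66.76 CPM in plate 1 replicate 3 and 67.23 CPM in library M (adjusted p = 0.506 from edgeR). Hsp90b1 was 17.1 times as abundant as Hyou1.

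Among the cochaperones, Manf stood out from the rest. It encodes a small secreted ER protein and had 296, 236 and 301 CPM on plate 1 and 386, 310.1 and 417 CPM on plate 2, a mean of 324 ± 66 CPM (SD, n = 6). The annotated span of Manf overlaps Rbm15b (29.6 CPM) on the same strand and Dcaf1 (34.5 CPM) on the opposite strand. The ER J proteins, which bring clients to BiP, were lower and ordered. Dnajb11 had 87.1 ± 12.3 CPM, Dnajc3 76.1 ± 11.1 CPM and Dnajb9 29.8 ± 5.48 CPM (each SD, n = 6). Dnajb11 exceeded Dnajc3 by only 0.19 ± 0.11 on the log2 scale but did so in 6 of 6 libraries (exact permutation p = 0.03125, adjusted p = 0.0354). Dnajc3 exceeded Dnajb9 by 1.33 in the same test, with the same p and in 6 of 6 libraries. Dnajb9, the lowest of this group, had 27.7, 23.5 and 24.2 CPM on plate 1 and 35.8, 31.9 and 35.6 CPM on plate 2. Sdf2l1, which works with Dnajb11, had 47.4 ± 7.61 CPM and Creld2, an ER protein with isomerase activity, 40.8 ± 8.83 CPM (each SD, n = 6).

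Disulphide bonds are formed by the isomerases and renewed by the ERO1 oxidases. Pdia3, the isomerase that works with calreticulin and calnexin, had 319, 248 and 318 CPM on plate 1 and 350.5, 428 and 331 CPM on plate 2. Pdia6 had 249.6 ± 66.3 CPM and P4hb, the archetypal protein disulphide isomerase, 208 ± 48.8 CPM (each SD, n = 6). Pdia3 exceeded P4hb in 6 of 6 libraries by 0.68 in log2 (exact permutation p = 0.03125, adjusted p = 0.0354). Pdia4 was far below its relatives, with 20.4 ± 2.69 CPM (SD, n = 6) and a log2 difference from Pdia6 of -3.51 ± 0.53 (SD, n = 6, exact permutation p = 0.03125, adjusted p = 0.0354). The GC content of the last 200 bases of the transcripts was 24% for Pdia4 and 38% for Pdia6. Its part in this difference was not tested.

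Both ERO1 oxidases were expressed, the widely expressed Ero1l above Ero1lb, the form known from pancreatic islets. Ero1lb was the lowest of the folding genes, with 5.71, 5.43 and 6.82 CPM on plate 1 and 11.3, 12.3 and 10.3 CPM on plate 2. Every plate 2 library was above every plate 1 library. Ero1l had 32.6, 21.2 and 30.3 CPM on plate 1 and 31.6, 30.7 and 32.8 CPM on plate 2, with plate 1 replicate 2 lowest and the other 5 libraries close together. Ero1lb was below Ero1l in 6 of 6 libraries, a difference of -1.73 in log2 (exact permutation p = 0.03125, adjusted p = 0.0354), with means of -2.04 on plate 1 and -1.42 on plate 2.

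The stress sensors were of low to middle abundance. Ern1 (ENSMUSG00000020715, chromosome 11 of GRCm38, 106394650 to 106487852, minus strand) had 27.3, 22.4 and 33.2 CPM on plate 1 and 51.4, 58.8 and 81.7 CPM on plate 2, a mean of 45.8 ± 22.5 CPM (SD, n = 6). It had the largest coefficient of variation of the 45 genes, 49.2%, and its plates did not overlap. Atf6 had 27, 22.3 and 27.6 CPM on plate 1 and 27.7, 24.3 and 31.9 CPM on plate 2, with a coefficient of variation of 12.2% and plates that overlap. Eif2ak3 had 11.2, 12.7 and 13.2 CPM on plate 1 and 15.5, 5.92 and 22.6 CPM on plate 2. Library M was lowest for Eif2ak3 and held 0.3105 times the mean of the others of plate 2.

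Ern1 was above Atf6 in all 6 libraries, where Atf6 differed from Ern1 by a mean log2 value of -0.62 ± 0.60 (SD, n = 6, exact permutation p = 0.03125, adjusted p = 0.0354). In plate 1 replicates 1 and 2 the log2 differences were -0.015 and -0.0055, the latter from 505 counts of Atf6 and 507 of Ern1, so that the order in these libraries is within counting error and the p rests on it. On plate 1 the sensors were nearly level, with a mean log2 difference of -0.09, and on plate 2 it was -1.15. The libraries of the plates do not overlap in this ratio, which no scaling of libraries can alter beyond the pseudocount. Atf6 exceeded Eif2ak3 in 6 of 6 libraries, by a log2 difference of 1.02, and Eif2ak3 was below Ern1 in 6 of 6, with a difference of -1.64 (each exact permutation p = 0.03125, adjusted p = 0.0354).

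Of the transcription factors, Atf4 had the highest level, with 214, 215 and 223 CPM on plate 1 and 274, 313 and 267 CPM on plate 2. Its plates did not overlap in these CPM. After TMM scaling they almost met, with 242.2 CPM in plate 1 replicate 2 and 243.4 CPM in library H (adjusted p = 0.642 from edgeR). Xbp1 had 47.1 ± 7.3 CPM (SD, n = 6). The ratio between these genes was the steadiest but 1 of the pairs, with Atf4 above Xbp1 by 2.39 ± 0.0982 on the log2 scale (SD, n = 6, exact permutation p = 0.03125, adjusted p = 0.0354). The steadiest was that of Derl1 over Derl2, described below with its SD. Ddit3, which encodes the stress factor CHOP, had 33.9 ± 4.91 CPM (SD, n = 6), and Creb3l2, an ER-bound factor of secretory cells, had 9.88 ± 3.47 CPM (SD, n = 6). Atf3, an early stress factor, was lowest with 3.54, 3.14 and 3.97 CPM on plate 1 and 5.34, 5.08 and 3.62 CPM on plate 2, from 71 to 157 counts per library. Ddit3 exceeded Atf3 in 6 of 6 libraries by 2.78 in log2 (exact permutation p = 0.03125, adjusted p = 0.0354). The annotation places Mars on the opposite strand at Ddit3, and the strand setting of the counting is not given in the sources used here.

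Targets of ATF4 and CHOP ranged over 10.9 times in level. Asns, which makes asparagine, had 88.8, 95.9 and 83.5 CPM on plate 1 and 93, 102 and 78.3 CPM on plate 2, with a coefficient of variation of 9.61% that was the second smallest of the 45 genes. Ppp1r15a, the GADD34 subunit that restores translation, had 18.3 ± 6.64 CPM and Trib3, an inhibitory pseudokinase, 18 ± 4.88 CPM (each SD, n = 6). In library M Ppp1r15a was at 7.12 CPM, against 26.7 and 23 CPM in the other plate 2 libraries. Chac1, which degrades glutathione, was lowest with 8, 9.19 and 5.42 CPM on plate 1 and 10.6, 9.7 and 6.58 CPM on plate 2. In Chac1 the libraries of either plate overlap.

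Genes of ER-associated degradation covered a wide span. Derl1, a membrane protein of the retrotranslocation complex, was highest with 75.3, 74.5 and 73.9 CPM on plate 1 and 92.2, 135 and 101 CPM on plate 2. Its relative Derl2 had 76.7 ± 16.6 CPM (SD, n = 6), and Derl1 was above it in 6 of 6 libraries, by a log2 difference of 0.25 ± 0.0915 (SD, n = 6, exact permutation p = 0.03125, adjusted p = 0.0354). Derl3, known from plasma cells and pancreas, was the lowest of all 45 genes, with 1.42, 1.15 and 2.1 CPM on plate 1 and 2.1, 3.75 and 1.84 CPM on plate 2, from 26 to 116 counts. Derl2 exceeded Derl3 by 4.69 on the log2 scale (6 of 6 libraries, exact permutation p = 0.03125, adjusted p = 0.0354).

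Sel1l and Syvn1 encode the adaptor and the ubiquitin ligase (HRD1) of one complex. Syvn1 had 34.1, 27.2 and 38.4 CPM on plate 1 and 47.3, 11.9 and 65.7 CPM on plate 2. Library M was lowest and the other plate 2 libraries were highest, so that the coefficient of variation of 48.7% is 34.96% without that library. Sel1l had 66.4 ± 18 CPM (SD, n = 6) and exceeded Syvn1 in 6 of 6 libraries (exact permutation p = 0.03125, adjusted p = 0.0354). Their log2 difference was 2.95 in that library and between 0.16 and 0.96 in the other 5. Herpud1, a stress-induced part of the complex, had 35.4 ± 11 CPM and Edem1, which marks misfolded glycoproteins, 16.9 ± 6.7 CPM (each SD, n = 6). Mrpl49 lies on the opposite strand at Syvn1 and Mis12 at Derl2.

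The translocon and signal peptidase genes were the most even group, with 2.8 times between the highest and the lowest of 9 genes. The TRAP complex, which assists the Sec61 channel, has 4 subunits. Ssr4 was the highest with 251, 248 and 257 CPM on plate 1 and 262, 394 and 279 CPM on plate 2, and library M was far above the rest. Ssr1 had 92.9, 77.8 and 93 CPM on plate 1 and 107, 110.4 and 123 CPM on plate 2, and the means of Ssr2 and Ssr3 were 121 and 104 CPM. Within a library the highest TRAP subunit, always Ssr4, was between 2.42 and 4.54 times the lowest, which was Ssr1 on plate 1 and in library L, Ssr3 in library M and Ssr2 in library H.

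Sec61a1, which encodes the pore of the channel, had 170.5, 199 and 186 CPM on plate 1 and 251, 409 and 301 CPM on plate 2. The small subunit gene Sec61b had 229, 227 and 249.9 CPM on plate 1 and 207, 248 and 254 CPM on plate 2, and its coefficient of variation of 7.67% was the smallest of the 45 genes. Sec61b was above Sec61a1 in 3 of 3 plate 1 libraries and below it in 3 of 3 plate 2 libraries, with mean log2 differences of 0.35 and -0.42. Over all libraries the difference of -0.0357 ± 0.46 (SD, n = 6) was within the spread (exact permutation p = 0.875, adjusted p = 0.875). Counts of both genes were not whole in 6 of 6 libraries, which may leave their levels less certain than those of genes with whole counts. How much less certain was not measured.

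Signal peptidase cuts the signal peptide. Spcs1 had 201, 184 and 197 CPM on plate 1 and 185, 203 and 122 CPM on plate 2, with library H far below the rest. Spcs2 had 174, 145 and 184 CPM on plate 1 and 199, 227 and 224 CPM on plate 2. Counts were not whole in 2 libraries for Spcs1 and in 4 for Spcs2, and Glt8d1 lies on the opposite strand at Spcs1. Spcs1 was above Spcs2 in 3 of 3 plate 1 libraries and below it in 3 of 3 plate 2 libraries, with mean log2 differences of 0.22 and -0.38, and over all libraries the order was within the spread of the libraries (exact permutation p = 0.7812, adjusted p = 0.8301). The catalytic subunit gene Sec11a had 144 ± 27.6 CPM (SD, n = 6).

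**Figure D2:**
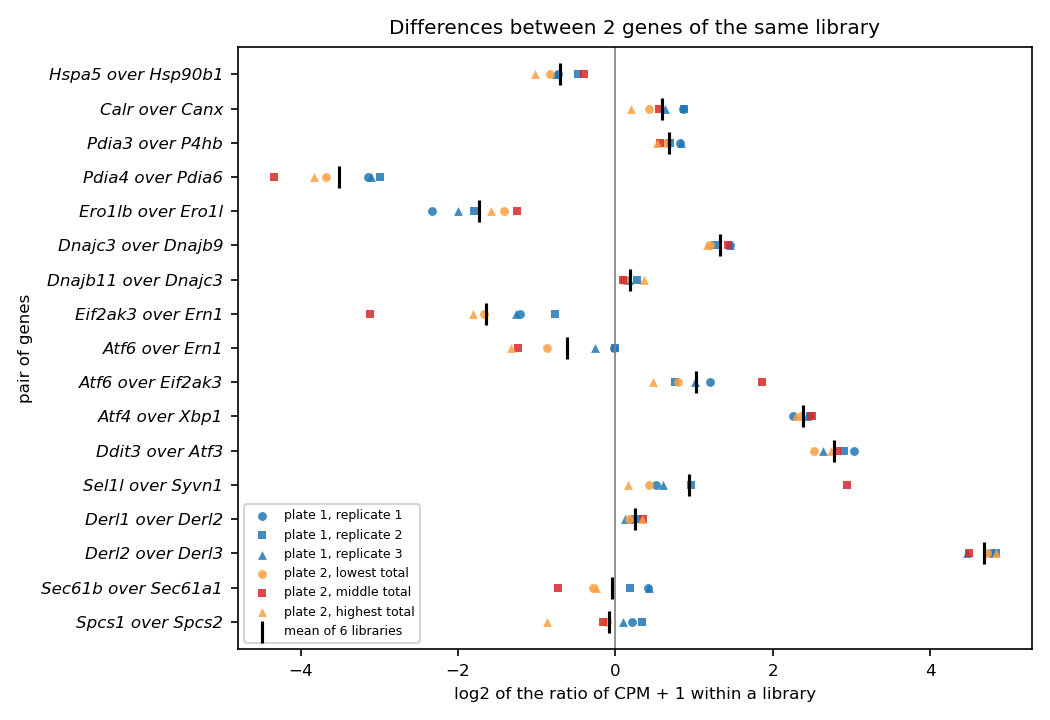
Log2 of the ratio of CPM + 1 between 2 genes within each library for the 17 pairs, with symbols for single libraries and a bar for the mean of 6. In 15 pairs all libraries lie on one side of 0, with 2 plate 1 libraries close to 0 for Atf6 over Ern1, and for Sec61b over Sec61a1 and Spcs1 over Spcs2 the plates lie on opposite sides.

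Of the 17 pairs, 15 had the same order in 6 of 6 libraries and an adjusted p of 0.0354, with the reservation given for Atf6 and Ern1. The exact p of 0.03125 is the smallest that 6 libraries allow, and the libraries of a plate share a passage, which the test leaves out. Because the pairs were chosen with earlier results of these data known, these p-values describe the libraries and give no independent support to an order. In 8 pairs the libraries of the plates do not overlap, and the share over pairs of other genes was not counted. These 8 are the 2 pairs with opposite order, Calr over Canx, Pdia3 over P4hb, Pdia4 over Pdia6, Ero1lb over Ero1l, Eif2ak3 over Ern1 and Atf6 over Ern1. With 3 libraries a plate an exact permutation test cannot give a p under 0.1, so these differences were not tested. When the 45 genes were placed in order of their mean, only 6 of the 44 neighbouring pairs kept that order in 6 of 6 libraries: Hsp90b1 above Hspa5, Hspa5 above Calr, Calr above Pdia3, Atf6 above Pdia4, Chac1 above Atf3 and Atf3 above Derl3. The other 38 neighbours were not separated in every library.

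The plates are the only labelled split of the libraries, and they were compared across all genes with edgeR (TMM scaling, quasi-likelihood test, Benjamini-Hochberg adjustment). Of the 45 genes, 0 had an adjusted p under 0.05, where 29 of 15669 genes tested (0.185%) did. At an unadjusted p under 0.05 there were 10 of 45 genes (22.2%), beside 16.1% of all genes. Of these 7 were higher on plate 2 (8.13% of all genes). The median log2 fold change of the 45 genes was 0.128, beside 0.0313 for all genes tested, and 31 of 45 (68.9%) were above 0, beside 54.1% of all genes. DESeq2 called 1 of the 45 (3.8% of all genes with an adjusted p) and limma-voom 0 (0.191% of all genes), with 9 of 45 (20%) at an unadjusted p under 0.05 by either. That share was 8.57% of 27022 genes, low counts included, for DESeq2 and 16.3% of the filtered genes for limma-voom. In edgeR without plate 1 replicate 1, 5 of 45 genes (11.1%) were at an unadjusted p under 0.05, beside 9.81% of all genes. Without library M 20 of 45 (44.4%) were, beside 26.8% of all genes.

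Ern1 had the largest difference, a log2 fold change of 0.95 (standard error 0.20) toward plate 2, with an adjusted p of 0.0949 from edgeR, 0.00201 from DESeq2 and 0.106 from limma-voom. It was the gene called by DESeq2. Scaled by TMM, its levels were 29.8, 25.3 and 35.6 CPM on plate 1 and 46.1, 54.6 and 74.4 CPM on plate 2. Over the 6 fits that each left out a library the log2 fold change lay from 0.74 to 1.09 and the adjusted p of edgeR from 0.029 to 0.396.

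The other genes with an unadjusted p under 0.05 were Ero1lb, Sec61a1, Herpud1, Pdia6, Hsp90b1 and Canx, with log2 fold changes of 0.65, 0.53, 0.49, 0.38, 0.36 and 0.33, and on the other side Pdia4 (-0.50), Spcs1 (-0.46) and Sdf2l1 (-0.37). Leaving out 1 library moved 5 of these values by over 1.5 times. Sec61a1 was at 0.27 and Herpud1 at 0.30 without library M, Hsp90b1 at 0.24 and Spcs1 at -0.27 without library H, and Sdf2l1 at -0.19 without plate 1 replicate 3. With all libraries the adjusted p of these 9 genes from edgeR lay between 0.135 and 0.299. On TMM-scaled CPM the plates did not overlap for 24.8% of all genes. With plate 2 higher this held for 12 of the 45 genes (26.7%, and 12.8% of all genes). These were Ern1, Ero1lb, Sec61a1, Herpud1, Pdia6, Hsp90b1, Canx, P4hb, Creld2, Derl2, Hyou1 and Atf4. The nearest libraries of the plates almost met for Derl2 (72.58 and 72.77 CPM), Sec61a1 (224.8 and 225.6 CPM) and Atf4 (242.2 and 243.4 CPM). They were also close for Hyou1 (66.76 and 67.23 CPM), Creld2 (37.02 and 37.74 CPM) and Canx (251.1 and 255.1 CPM). The count therefore rests on the scaling used, and whether it holds under another was not tested. With plate 2 lower they were 4 (8.89%, and 12% of all genes), namely Pdia4, Sdf2l1, Sec61b and Spcs1.

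By role, the median log2 fold change was highest for the degradation genes (0.29, 7 of 7 above 0) and the chaperones (0.28, 4 of 5 above 0) and lowest for the targets of ATF4 and CHOP (-0.10, 1 of 4 above 0). None of these groups held a called gene in edgeR. Without library M this order changed. The sensors then had the highest median (0.32, from -0.0238 with all libraries), followed by the chaperones (0.22), and the degradation genes (0.0667) were below the cochaperones (0.0902). The targets of ATF4 and CHOP were again lowest (-0.0719). The 10 genes with an ERSE had a median of 0.30 with 9 of 10 above 0, and the 29 genes without one had 0.10 with 18 of 29 above 0, beside 54.1% of all genes, and no test was made of either set. Without library M the medians were 0.20 with 8 of 10 above 0 and 0.0244 with 17 of 29 above 0, beside 51% of all genes.

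**Figure D3:**
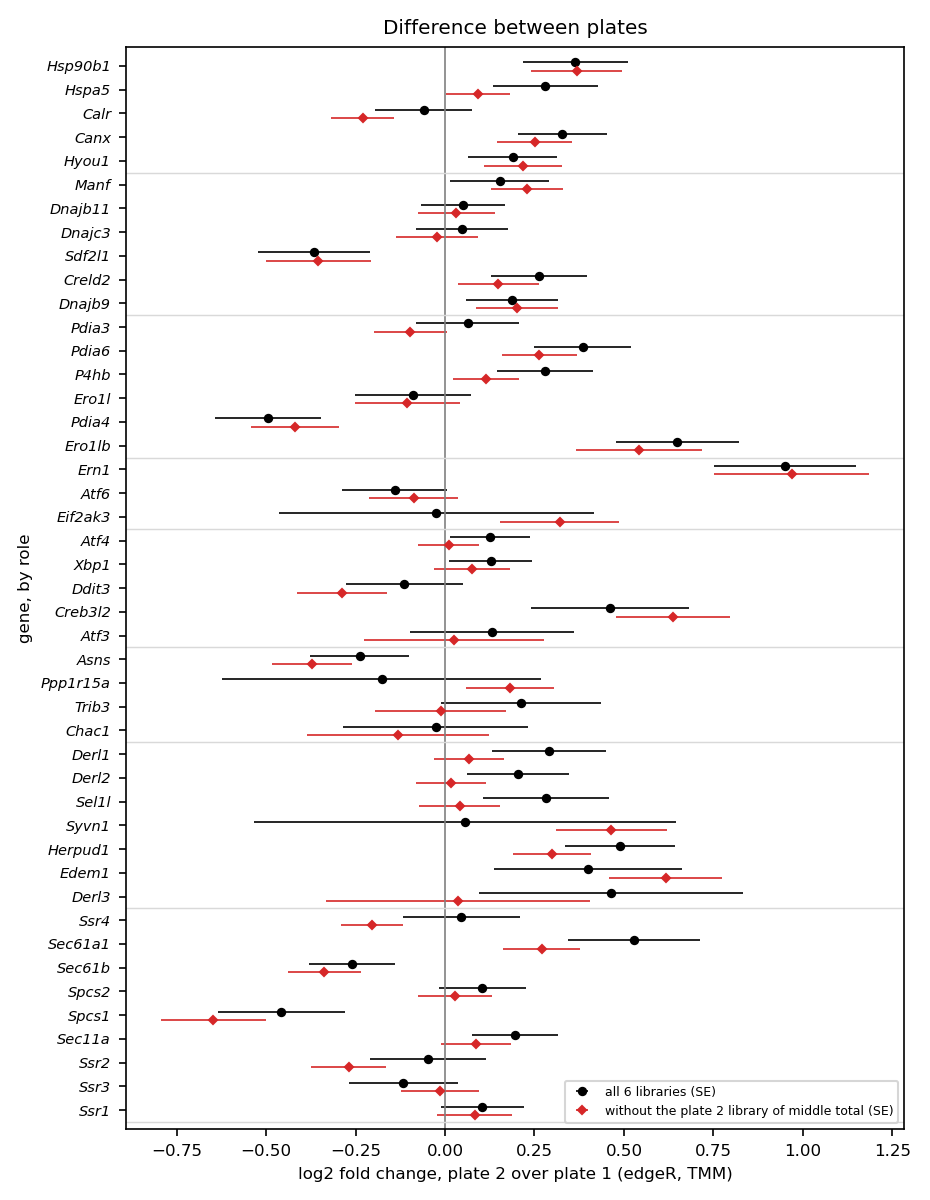
Log2 fold change of plate 2 over plate 1 with its standard error for each of the 45 genes, by role, from edgeR on all 6 libraries (black) and without library M (red). Ern1 lies farthest to the right at 0.95, and Syvn1, Ppp1r15a and Eif2ak3 have wide errors that shrink without that library.

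The number of calls was highest without library M among the 6 fits that each left out a library. In that fit 7 of the 45 genes (15.6%) had an adjusted p under 0.05 in edgeR, beside 12% of all genes. Higher on plate 2 without it were Ern1 (log2 fold change 0.97, adjusted p = 0.029), Creb3l2 (0.64, adjusted p = 0.0181) and Edem1 (0.62, adjusted p = 0.0208). Lower were Spcs1 (-0.65), Pdia4 (-0.42), Asns (-0.37) and Sec61b (-0.34), with adjusted p from 0.0173 to 0.0442. With all libraries and scaling by the total alone, Asns (0.0302) and Sec61b (0.00553) were above 0. With all libraries Creb3l2 was at 0.46 (adjusted p = 0.348 in edgeR) and Edem1 at 0.40 (adjusted p = 0.506). Without library H they were at 0.305 and 0.0747. The log2 fold change of Hspa5 was 0.28 with all libraries and 0.0926 without library M. For Syvn1 it was 0.0564 (standard error 0.59) and 0.46 (standard error 0.16).

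In this library 3 of the 45 genes, Syvn1, Ppp1r15a and Eif2ak3, were more than 2-fold below the mean of the other plate 2 libraries, beside 8.2% of 12360 genes, and 0 of the 45 were more than 2-fold above it, beside 0.251%. The ratios were 0.211 for Syvn1, 0.286 for Ppp1r15a and 0.31 for Eif2ak3. Just short of the limit were Edem1 at 0.521 below and Derl3 at 1.91 above. The median log2 ratio of the 45 genes was 0.175, and that of all genes -0.0289. The GC content of the last 200 bases of the transcripts moved with this ratio (Spearman's rho 0.463 across the 45 genes, a description, since all points share these libraries). It was 28.25% for Eif2ak3, 42.9% for Syvn1 and 47% for Ppp1r15a, beside a median of 41.9% for the 45 genes. The part of GC content in these values was not tested further.

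**Figure D4:**
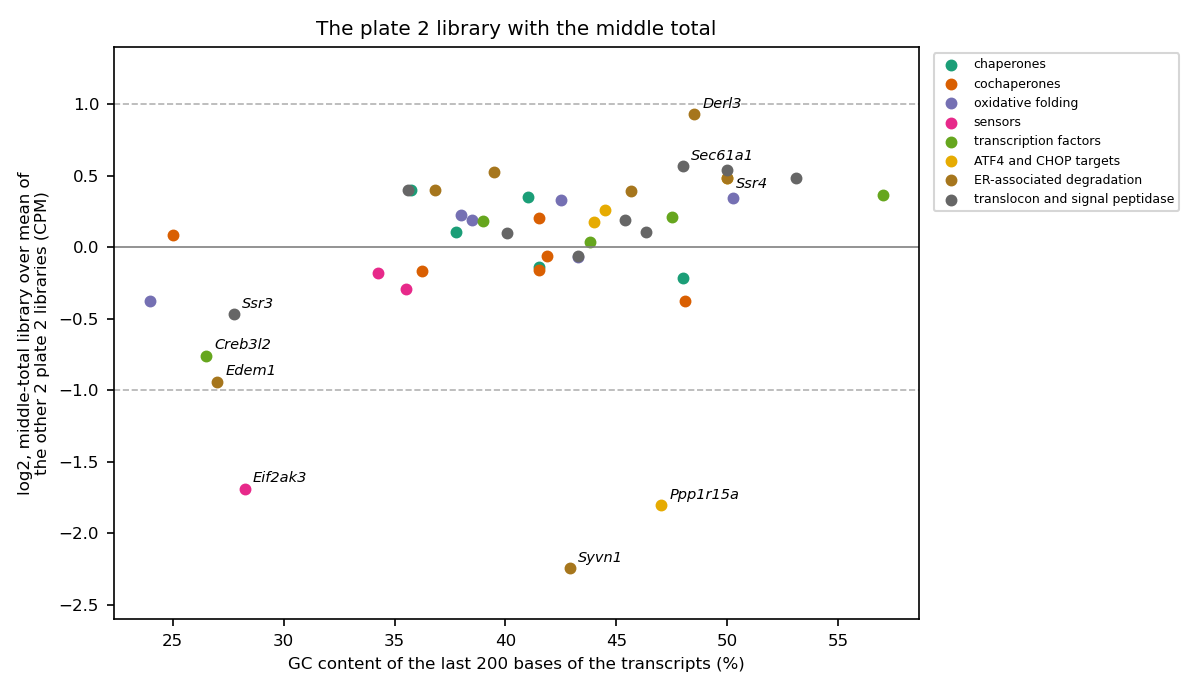
Log2 ratio of CPM in library M (the plate 2 library of middle total) over the mean of the other plate 2 libraries, against the GC content (%) of the last 200 bases of the transcripts, 1 point a gene, coloured by role. Dashed lines mark a 2-fold difference, and Syvn1, Ppp1r15a and Eif2ak3 lie below the lower one.

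Levels depend on what the counts are divided by. Scaled by the total alone, 11 of the 45 genes (24.4%) had an adjusted p under 0.05 in edgeR, all higher on plate 2, beside 9.46% of all genes. The median log2 fold change of all genes was then 0.299 and that of the 45 genes 0.395, so that most of the shift was common to all genes. With no filter on low counts 2 of the 45 genes were called by edgeR, Ern1 and Sec61a1, beside 2.02% of all genes. The share of counts from mitochondrial genes was 3.98% to 4.85% on plate 1 and 4.62% to 7.27% on plate 2, and its part in these differences was not tested.

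The neighbouring machinery was read from further lists of genes. All 9 genes of the oligosaccharyltransferase, which adds the glycan, were at or above 1 CPM in every library, from 44.8 CPM for Stt3a to 330.1 CPM for Rpn1. All 7 genes of the signal recognition particle and its receptor were, from 24.1 CPM for Srpr to 289 CPM for Srp14. Of 6 genes of glucose trimming and its lectin cycle 5 were, with Uggt1, the folding sensor of glycoproteins, highest at 129.8 CPM and Man1b1 lowest at 32.7 CPM. Of 11 other thiol oxidoreductases 10 were, from Pdia5 at 6.38 CPM to Tmx1 at 324 CPM. All 12 further degradation genes were, from Edem3 at 15.4 CPM to Ubxn4 at 186 CPM.

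None of the genes of these lists passed an adjusted p of 0.05 between the plates in edgeR. Unadjusted p under 0.05 were found for 3 of 9, 1 of 7, 3 of 5, 3 of 10 and 1 of 12 genes tested, beside 16.1% of all genes. The 3 of the oligosaccharyltransferase (Rpn2, Stt3a and Stt3b), the 3 of glucose trimming (Mogs, Prkcsh and Uggt1) and the 3 oxidoreductases (Txndc11, Dnajc10 and Prdx4) were higher on plate 2, and Srp19 and Ubxn4 were lower. Without library M edgeR called 3, 1, 1, 2 and 0 genes of these lists, beside 12% of all genes. They were Stt3a, Mogs, Prdx4 and Erp44 higher on plate 2, and Dad1, Ostc and Srp19 lower.

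Among 12 further targets of XBP1 and ATF6, Sec61g, the third subunit of the channel, was highest at 1134 CPM, above Sec61a1 and Sec61b, and Rcn3 was lowest at 0.686 CPM. None of the 12 passed the adjusted threshold in edgeR and 1 had an unadjusted p under 0.05, Sec61g, with a log2 fold change of -0.43, beside 16.1% of all genes. Without library M edgeR called 3 of the 12, Sec61g (-0.60) and Mydgf (-0.32) lower and Bet1 (0.51) higher, beside 12% of all genes. Of 18 further genes of the amino acid response, 16 had more than 3 counts in every library, from Slc7a11, the cystine carrier, at 1.53 CPM to Mthfd2, of mitochondrial folate metabolism, at 207 CPM. Of the 16 tested, 0 passed and 2 had an unadjusted p under 0.05, Atf5 (log2 fold change -1.05, adjusted p = 0.0712 from edgeR) and Ddit4 (-0.52), beside 16.1% of all genes. Without library M edgeR called 5 of the 16, beside 12% of all genes. Atf5 (-1.29), Ddit4 (-0.66), Phgdh (-0.56) and Psat1 (-0.33) were lower in that fit and Cebpg (0.39) was higher.

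For comparison, 12 chaperones of the cytosol and the mitochondria had a median of 293.1 CPM, beside 401.4 CPM for the 5 ER chaperones. They ranged from Hspa1a, a stress-induced HSP70, at 1.75 CPM to Hsp90aa1 at 3286 CPM. Hspa1b, the close relative of Hspa1a in this list, was at 6.16 CPM, and how reads were divided between them was not tested. None of these 12 passed the adjusted threshold in edgeR, and 3 had an unadjusted p under 0.05, Hspa8 and Hsph1 higher on plate 2 and Hsp90ab1 lower, beside 16.1% of all genes. Without library M edgeR called these 3 of the 12, in the directions given, beside 12% of all genes.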

How the data were processed

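Reads of 6 libraries were trimmed by the authors and assigned to GRCm38 transcripts (Gencode release M23) by Salmon 1.5.1 with its length correction off, and Tximeta gave gene sums. The authors deposited these sums without normalization, and they are expected counts. Here they were divided by the library total to give CPM, and rounded to whole numbers for count tests. Positions and GC content are from Gencode release M21 on GRCm38, which holds 54107 of the 54281 identifiers, and promoters are from RefSeq (GRCm38.p6).

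The plate comparison used the robust quasi-likelihood test of edgeR 4.0.16 after filterByExpr and TMM, with an adjusted p threshold of 0.05. DESeq2 1.42.0, limma-voom 3.58.1, other filters, scalings and pseudocounts and the omission of each library were the alternatives. Pairs of genes were compared within libraries as log2 of CPM + 1 by an exact sign-flip test, adjusted over 17 pairs. The plate test was tested on simulated data. No 2 libraries looked like one library deposited again (lowest chi-square per gene 10.3, against counting error only).

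The 45 genes, lists, pairs and motifs were chosen with earlier results of these data known. Values in each library are given for the highest and lowest gene of each role, the 3 largest and 3 smallest coefficients of variation, genes called by any of the 3 tools and pairs without a constant order. Hspa5 and some single values were added after they were seen. Python 3.11.15 and R 4.3.3 were used. Protein sequences were not used here.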

Additional observations from a re-analysis of the deposited data

Results flagged for a closer look

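The level of each of the 45 genes and the library total were examined, 46 quantities in all, and 5 had a single library whose gap to its nearest neighbour exceeded Dixon's critical share of the range. Chance gives about 1 in 20 values. Plate 2 library M (middle total) gave 502.7 CPM for Calr, where the others spanned 355.8 to 403.4 CPM, and the gene's mean is 381.1 CPM without it. It also gave 394.1 CPM for Ssr4, where the others spanned 247.5 to 279 CPM, and the gene's mean is 259.3 CPM without it. For Derl3 it gave 3.752 CPM and the others 1.149 to 2.103 CPM. Plate 2 library H (highest total) gave 122 CPM for Spcs1, below the 184.4 to 202.9 CPM of the others, and the gene's mean is 194.2 CPM without it. Replicate 2 of plate 1 gave 21.25 CPM for Ero1l, below the 30.33 to 32.81 CPM of the others, and the gene's mean is 31.61 CPM without it.

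In 2 of the 17 pairs every library of one plate lay on one side of 0 and every library of the other plate on the other side. For Sec61b over Sec61a1 the mean log2 difference was 0.3454 on plate 1 and -0.4169 on plate 2. For Spcs1 over Spcs2 it was 0.2161 on plate 1 and -0.3772 on plate 2. The difference between the plates was not tested in either pair.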

How the results depend on the processing

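The number of genes called between the plates was 29 with edgeR (2 higher on plate 2, 27 lower), 529 with DESeq2 (130 and 399), 545 without a filter on low counts (255 and 290) and 1482 with scaling by the total alone (1411 and 71). Of the 45 genes these settings called 0, 1, 2 and 11. The omission of single libraries gave from 0 to 1911 genes and from 0 to 7 of the 45. Without replicate 1 of plate 1 or without library L it was 0 genes (1611 and 2121 at an unadjusted p under 0.05 in edgeR), without replicates 2 and 3 of plate 1 it was 2 and 6, without library H 9 and without library M 1911. With scaling by the total alone, 42 of the 45 log2 fold changes were above 0, where 31 were with TMM. The 11 that turned were Sec61b (0.00553), Asns (0.0302), Atf6, Calr, Chac1, Ddit3, Eif2ak3, Ero1l, Ppp1r15a, Ssr2 and Ssr3, and Pdia4, Sdf2l1 and Spcs1 stayed below 0, as this scaling moves all genes alike (their median from 0.0313 to 0.299). The cause of the differences in the number of calls was not tested.

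The 17 differences between pairs kept their side of the threshold with pseudocounts of 0.1 and 5 CPM, which is fixed by the arithmetic where all libraries share an order. With 5 or 3 libraries the smallest exact p is 0.0625 or 0.25, so these give values and no test. Mean levels of the 45 genes moved by less than 1 SD under TMM, DESeq2's size factors and a total without mitochondrial genes. Genes under 10 CPM rest on as few as 26 counts in a library (Derl3). No paired analysis was possible because libraries are numbered 1 to 6 in the labels, with no number on both plates, and the count columns, which restart at 1 on plate 2, come with no statement that equal numbers pair wells.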

Other observations

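Apart from the 45 genes, 27 genes of the promoter table held an exact ERSE, of which 24 were in the count table under the same symbol. Most were at or near 0, with a median of 0.00809 CPM, and 6 had at least 1 CPM in every library. The highest was Hnrnpa3, an RNA-binding protein gene, at 764.2 CPM, followed by Xlr3a at 69.7 CPM, whose near copies Xlr3b and Xlr3c may share its reads, and Pan2, of the deadenylation machinery, at 12.4 CPM. None of the 8 that were tested between the plates passed an adjusted p of 0.05 in edgeR, with all libraries or without library M of plate 2. Alg12, a mannosyltransferase gene of the glycan precursor, was at 3.29 CPM. Its start lies 328 bases from that of Creld2 on the opposite strand of chromosome 15, and Creld2 was at 40.8 CPM. The ERSE of Creld2, at 88819520 to 88819538, lies between the starts of these genes. The match counted for Alg12 may therefore be the same element. These genes were looked at after the matches in the 45 genes were seen.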
